A study of Mus musculus with 22 samples.

Results

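The mitochondrial genome of the mouse is transcribed and translated inside the organelle, and all of its proteins are subunits of the respiratory chain or of ATP synthase. The transcripts described here are the 10 of these messages named mt-Nd1, mt-Nd2, mt-Nd4, mt-Nd5, mt-Nd6, mt-Co1, mt-Co2, mt-Co3, mt-Cytb and mt-Atp6. They were taken by gene symbol from the GRCm38 annotation, a rule that uses no measured value, although the set was picked with earlier results of these data known. All 10 were among the 15448 rows of the count table. The annotation places 37 genes on mitochondrial DNA, of which 13 code for proteins, and the 3 coding genes outside the set are mt-Nd3, mt-Nd4l and mt-Atp8.

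PolyA RNA of frozen livers was sequenced from 22 male wild-type CD2F1 mice in 3 groups. C26-TDCA mice (n = 8) received C26 cells, a mouse colon carcinoma line used as a model of cancer cachexia, and a daily intraperitoneal injection of 10 mg/kg taurodeoxycholic acid (TDCA), a taurine-conjugated bile acid. C26 mice (n = 8) received the same cells without TDCA, and CT mice (n = 6) were sham-injected and given vehicle. The transplant and the TDCA injections were thus compared in pairs: C26 with CT, C26-TDCA with CT, and C26-TDCA with C26.

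The respiratory chain passes electrons from NADH and succinate to oxygen through complexes I to IV and pumps protons out of the matrix, and ATP synthase, complex V, uses their return to make ATP. Mitochondrial DNA contributes some core subunits to complexes I, III, IV and V, and nuclear genes supply the rest, including every subunit of complex II. Both strands of the circular genome are read as long precursor RNAs that are cut, mainly at the tRNAs, into messages and rRNAs. Among the proteins only the one from mt-Nd6 is coded on the light strand. Hepatocytes are rich in mitochondria and use this machinery for fatty acid oxidation, urea synthesis and gluconeogenesis.

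Total counts were 20.52 to 28.26 M per C26-TDCA library, 17.51 to 28.13 M per C26 library and 16.51 to 25.26 M per CT library, and every one of the 10 transcripts passed the filter on low counts. The summed level of 8 hepatocyte markers (Alb, Apoa1, Apob, Ttr, Cps1, Hnf4a, Serpina1c and Tat), in TMM-normalised counts per 1000000 (CPM), was 32140 to 39147 in C26-TDCA livers, 29492 to 38115 in C26 livers and 60013 to 68985 in CT livers, so the tissue label was met in all groups while the sum was lower in both groups with the tumour. Of these 8 genes, 2 were called higher (Hnf4a and Tat) and 3 lower (Alb, Ttr and Cps1) in C26 than in CT livers. Over all genes tested, 28.9% were called higher and 29.2% lower in C26 than in CT livers, and the marker counts here are to be read beside these shares. The 6 Kupffer cell markers summed to 306 to 402 CPM in C26-TDCA, 255 to 381 CPM in C26 and 155 to 186 CPM in CT livers, and all 6 were called higher in C26 than in CT livers. So were 5 of 6 monocyte and neutrophil markers (summing to 16.3 to 40.1 CPM in C26-TDCA, 18.9 to 46.8 CPM in C26 and 2.26 to 6.35 CPM in CT livers) and 6 of 6 of sinusoidal endothelium (346 to 426, 246 to 440 and 171 to 218 CPM in the same order of groups). The same call was made for 5 of 6 stellate cell markers (326 to 428, 248 to 406 and 161 to 225 CPM) and for 2 of 5 of cholangiocytes, Spp1 and Sox9 (260 to 637, 239 to 763 and 19.3 to 32.6 CPM). It was made for 5 of 6 erythroid markers (159 to 342, 167 to 667 and 246 to 303 CPM) and for 0 of 3 of lymphocytes (0.161 to 1.59, 0.526 to 1.418 and 1.02 to 2.89 CPM). Called lower in C26 than in CT livers were the stellate marker Reln, the erythroid marker Alas2 and the lymphocyte marker Ms4a1. In C26-TDCA against C26 livers edgeR called 1 of the 8 hepatocyte markers higher and no marker of another cell type, beside 1.73% of all genes tested called higher. DESeq2 and voomWithQualityWeights each also called 1 sinusoidal endothelium and 1 stellate cell marker higher in that comparison. No measured marker was at 0 in every library of a group, and Cftr, Cd8a, Nkg7 and Trac had no row. The part of these differences in the results below was not tested, and in bulk tissue fewer cells of a type and less RNA per cell cannot be told apart.

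The set was dominated by mt-Co1. Per length, in mean CPM per kilobase of gene in CT livers, mt-Co1, the catalytic core of cytochrome c oxidase (complex IV), stood first at 13405 ± 515 (SD, n = 6). It was followed by mt-Cytb, the cytochrome b of complex III, at 6326 ± 366, by the complex I subunits mt-Nd1 at 5830 ± 399 and mt-Nd2 at 5173 ± 267, and by mt-Nd6 at 2927 ± 316, mt-Nd4 at 2642 ± 192 and mt-Nd5 at 2326 ± 204. The lowest were mt-Co2, the subunit of complex IV that takes up electrons from cytochrome c, at 166 ± 40.9, mt-Atp6, the proton channel subunit of ATP synthase, at 131 ± 30.6, and mt-Co3, the third core subunit of complex IV, at 97.6 ± 18.0 CPM per kilobase. Neighbours in this order overlapped within 1 SD except at 3 steps, which were mt-Co1 to mt-Cytb, mt-Nd2 to mt-Nd6 and mt-Nd5 to mt-Co2. Ranked by mean CPM among all genes of the count table, mt-Co1 was number 12 in C26-TDCA livers, 12 in C26 livers and 2 in CT livers, and mt-Cytb was number 19, 19 and 6.

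The lowest 3 transcripts are those with an identical nuclear copy. Their copies Gm28661, Gm10925 and Gm28437 are unprocessed pseudogenes that lie side by side on the minus strand of chromosome 1, and they match mt-Co2 in 681 of 681 compared bases, mt-Atp6 in 678 of 678 and mt-Co3 in 783 of 783. The first 60 bases of each pair are shown because they make plain that a read from one cannot be told from the other by sequence. They are from the GENCODE M21 transcripts on GRCm38, 5′ to 3′, with the start codon in capitals. The mitochondrial stretches are chrM:7013-7072, chrM:7927-7986 and chrM:8607-8666 on the plus strand, and the nuclear ones chr1:24615506-24615565, chr1:24614592-24614651 and chr1:24613912-24613971 on the minus strand.
mt-Co2: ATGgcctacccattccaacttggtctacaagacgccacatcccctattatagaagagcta
Gm28661: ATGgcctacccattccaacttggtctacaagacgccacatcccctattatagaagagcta
mt-Atp6: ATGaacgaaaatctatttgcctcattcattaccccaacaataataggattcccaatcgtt
Gm10925: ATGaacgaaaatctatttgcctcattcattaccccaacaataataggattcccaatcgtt
mt-Co3: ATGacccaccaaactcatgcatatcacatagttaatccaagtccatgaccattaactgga
Gm28437: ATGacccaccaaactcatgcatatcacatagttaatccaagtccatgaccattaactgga

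Over whole genes, the share of 31-base stretches that also occur in an annotated nuclear transcript was 100% for mt-Co2, 99.9% for mt-Co3 and 99.5% for mt-Atp6. It was 63.9% for mt-Co1 and 62.8% for mt-Nd4, 16.8% for mt-Nd5, 13.5% for mt-Nd2, 7.36% for mt-Nd6, 6.55% for mt-Cytb and 0% for mt-Nd1. Nuclear sequence outside annotated transcripts was not searched. Of the summed counts of each identical pair, the median share assigned to the mitochondrial gene was 60.7% in C26-TDCA, 63.2% in C26 and 64.4% in CT livers for mt-Co2 with Gm28661, 39.0%, 39.6% and 39.3% in the same order of groups for mt-Atp6 with Gm10925, and 60.7%, 52.0% and 52.6% for mt-Co3 with Gm28437. How reads with several places in the genome were counted is not given in the sources used here, so the levels of mt-Co2, mt-Atp6 and mt-Co3 are uncertain. The levels of mt-Co1 and mt-Nd4 are uncertain over the shared parts of these genes.

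**Figure D1:**
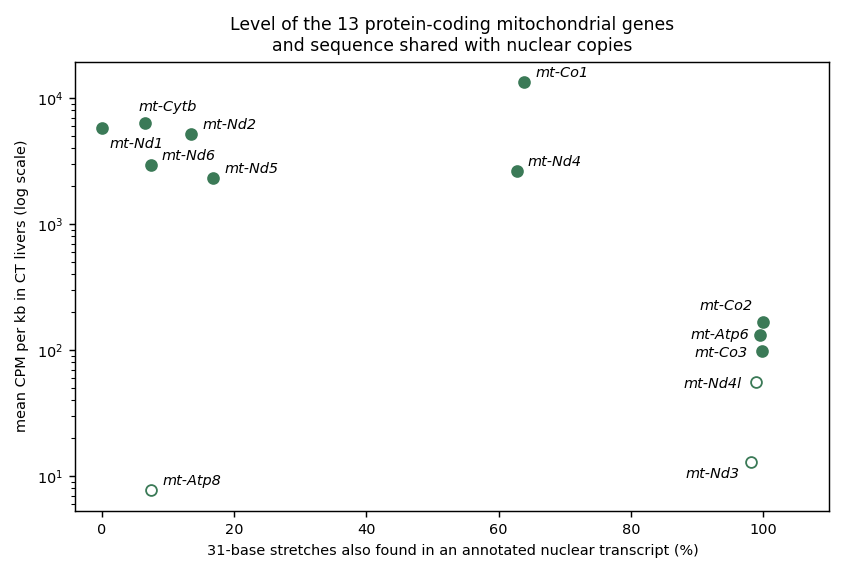
Mean level in CT livers, in CPM per kilobase on a log scale, against the percent of 31-base stretches shared with an annotated nuclear transcript, for the 13 protein-coding mitochondrial genes (filled points: the 10 transcripts described; open points: the other 3). The 5 genes above 98% shared sit at or below 166 CPM per kilobase, and mt-Atp8, with 7.47% shared, is the lowest of all. Only annotated transcripts were searched. The nuclear sequence between Gm28661 and Gm10925, the copies of its neighbours mt-Co2 and mt-Atp6, was thus not compared with mt-Atp8.

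mt-Nd5 and mt-Nd6 share the last 14 bases of each gene on opposite strands, and the strand setting of the counting is not given. The 3′ ends are shown for that reason, with the shared bases in capitals, at chrM:13526-13565 on the plus strand for mt-Nd5 and chrM:13552-13591 on the minus strand for mt-Nd6. Without strand, reads from either message over those bases, or antisense reads anywhere in the genes, cannot be told apart.
mt-Nd5: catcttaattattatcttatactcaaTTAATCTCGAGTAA
mt-Nd6: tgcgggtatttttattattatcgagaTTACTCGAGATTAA

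In C26 livers 9 of the 10 transcripts were lower than in CT livers, none was higher and mt-Cytb was not called, in a comparison in which 29.2% of the 14785 genes tested were called lower and 28.9% higher (edgeR, adjusted p under 0.05). The log2 fold changes in the C26 against CT comparison ran from -0.85 for mt-Atp6 to -0.16 for mt-Cytb, with a median of -0.47 against a median of -0.00 over all genes tested. All C26 libraries lay below all CT libraries for 5 of the 10 (mt-Nd1, mt-Nd2, mt-Co1, mt-Co2 and mt-Co3), while 15.3% of all genes tested separated in this way. An unadjusted p under 0.05 was reached by all 10.

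Among the complex I subunits, mt-Nd1, which forms part of the ubiquinone site, had 3696, 4330 and 4682 CPM as the lowest, median and highest value of the C26-TDCA livers, 3456, 4148 and 4783 CPM in C26 livers and 5178, 5516 and 6201 CPM in CT livers. It is the transcript with no 31-base stretch in common with an annotated nuclear one. Both tumour groups lay wholly below CT, with a log2 fold change of -0.46 in C26 against CT livers (SE 0.078, adjusted p = 1.91e-05). mt-Nd2, a subunit of the proton-pumping membrane arm, had 3577, 3969 and 4531 CPM in C26-TDCA, 3327, 3745 and 4472 CPM in C26 and 5029, 5364 and 5802 CPM in CT livers. Again neither tumour group reached the lowest CT library, and the log2 fold change in C26 livers was -0.49 (SE 0.075, adjusted p = 5.92e-06).

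mt-Nd4, also of the membrane arm, had 2565, 2657 and 3060 CPM in C26-TDCA, 2349, 2628 and 3332 CPM in C26 and 3293, 3585 and 4047 CPM in CT livers. A single C26 library reached the CT range, and the log2 fold change was -0.43 (SE 0.075, adjusted p = 2.48e-05). mt-Nd5, the distal pumping subunit of the arm, had 3193, 3921 and 4476 CPM in C26-TDCA, 2619, 3503 and 4193 CPM in C26 and 3899, 4160 and 4820 CPM in CT livers. Here the ranges overlapped more, with 6 of 8 C26 libraries below the lowest CT library, and the log2 fold change was -0.29 (SE 0.097, adjusted p = 0.0132). mt-Nd6, the complex I subunit coded on the light strand, had 1146, 1352 and 1460 CPM in C26-TDCA, 988, 1255 and 1463 CPM in C26 and 1328, 1525 and 1750 CPM in CT livers. With 5 of 8 C26 libraries below every CT library, its log2 fold change was -0.26 (SE 0.088, adjusted p = 0.0134). Scaling ended both calls in an alternative fit, with an adjusted p of 0.06 for mt-Nd5 when libraries were scaled to the counts outside the 10 transcripts and the 20 most abundant genes, and of 0.0579 for mt-Nd6 with upper-quartile scaling.

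In complex III, mt-Cytb had 5732, 6440 and 7143 CPM in C26-TDCA, 5250, 6431 and 7352 CPM in C26 and 6749, 7175 and 7811 CPM in CT livers. The groups overlapped, and its log2 fold change of -0.16 in C26 livers (SE 0.074, 95% interval -0.31 to -0.02, adjusted p = 0.0648) missed the threshold. It passed with DESeq2 (adjusted p = 0.048), with voomWithQualityWeights (0.0301) and with total-count scaling (5.66e-07). It also passed without C26 library 2 (log2 fold change -0.19, adjusted p = 0.029) or without C26 library 7 (-0.18, adjusted p = 0.0439).

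In complex IV, mt-Co1 had 11681, 13014 and 13837 CPM in C26-TDCA, 11486, 12139 and 17168 CPM in C26 and 20105, 20335 and 22170 CPM in CT livers. The tumour groups were far from the CT range, and mt-Co1 had the smallest p of the set, with a log2 fold change of -0.66 (SE 0.080, adjusted p = 1.39e-07). mt-Co2 had 65.5, 74.4 and 112.4 CPM in C26-TDCA, 56.6, 74.8 and 82.6 CPM in C26 and 84.8, 109 and 161 CPM in CT livers. It was lower in C26 livers with a log2 fold change of -0.63 (SE 0.132, adjusted p = 0.000213), and the row of its nuclear copy Gm28661 was at -0.48 (SE 0.129, adjusted p = 0.00286). mt-Co3 had 38.4, 50.1 and 58.2 CPM in C26 and 63.1, 74.3 and 102.3 CPM in CT livers, without overlap. Its log2 fold change was -0.60 (SE 0.181, adjusted p = 0.00632), and that of its copy Gm28437 was -0.55 (adjusted p = 4.6e-05).

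In ATP synthase, mt-Atp6 had 37.9, 52.7 and 99.6 CPM in C26-TDCA, 37.3, 47.7 and 72.7 CPM in C26 and 68.7, 85.5 and 121 CPM in CT livers. In both tumour groups 7 of 8 libraries lay below every CT library. The log2 fold change in C26 livers was -0.85 (SE 0.181, adjusted p = 0.000292), and that of the copy Gm10925 was -0.70 (SE 0.104, adjusted p = 3.33e-06). These fold changes are relative to the bulk of genes, since scaling to total counts moved the median of all genes in C26 against CT by -0.34; under that scaling all 10 transcripts were called lower, and the share of called genes that were higher was 22.6%, against 49.7% with TMM.

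**Figure D2:**
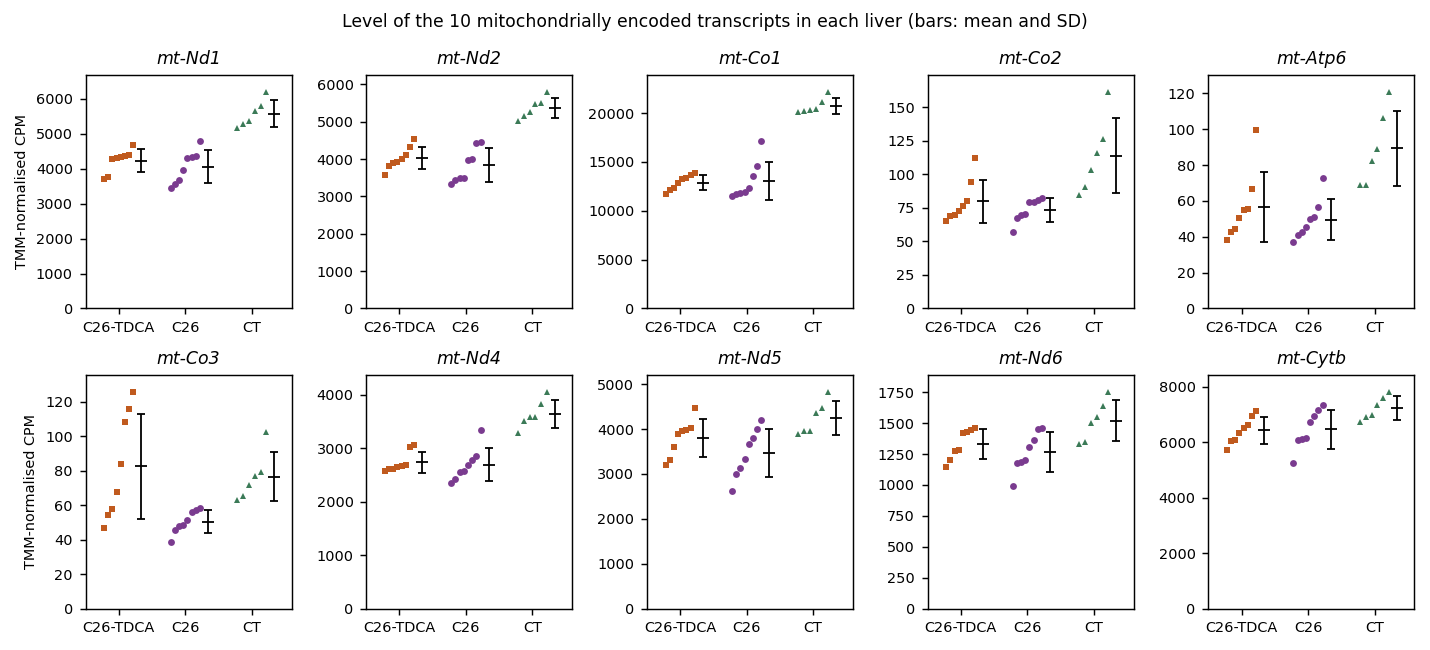
TMM-normalised CPM of the 10 transcripts in each liver, with C26-TDCA (squares), C26 (circles) and CT (triangles) side by side and points sorted by value within a group; black bars give the mean and SD (n = 8, 8 and 6). CT livers lie above both tumour groups without overlap for mt-Nd1, mt-Nd2 and mt-Co1, and the C26-TDCA points of mt-Co3 reach from 47.1 to 126 CPM.

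In C26-TDCA against CT livers 6 of the 10 transcripts were lower (mt-Nd1, mt-Nd2, mt-Nd4, mt-Co1, mt-Co2 and mt-Atp6) and 4 were not called, beside 28.2% of all genes tested called lower and 28.7% higher. DESeq2 called 7 of the 10 lower and voomWithQualityWeights 8. The median log2 fold change was -0.41. All C26-TDCA libraries lay below all CT libraries for 4 transcripts (mt-Nd1, mt-Nd2, mt-Nd4 and mt-Co1), as they did for 16.2% of all genes tested. This comparison shares its CT libraries with the one above, so the values for each are given side by side. mt-Nd1 was at -0.40 in C26-TDCA and -0.46 in C26 livers, mt-Co1 at -0.69 and -0.66, and mt-Atp6 at -0.66 and -0.85, each against CT.

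Of the 4 transcripts not called in C26-TDCA livers, mt-Nd5 had a log2 fold change of -0.16 (SE 0.097, adjusted p = 0.173) and mt-Co3 one of 0.11 (SE 0.182, adjusted p = 0.629), which turned to -0.20 with total-count scaling and -0.03 with voomWithQualityWeights. mt-Nd6, at -0.19 (SE 0.088, adjusted p = 0.0715), was called without CT library 1 (-0.23, adjusted p = 0.0408), CT library 2 (-0.22, 0.0461) or C26 library 4 (-0.19, 0.0487), and with voomWithQualityWeights (-0.21, 0.0255). mt-Cytb, at -0.17 (SE 0.074, adjusted p = 0.0538), was called with DESeq2 (adjusted p = 0.0335), with voomWithQualityWeights (0.0235) and when only these 2 groups were fitted (0.0411). It was also called with 5 libraries left out in turn, namely C26-TDCA 4 (-0.19, adjusted p = 0.0448), C26-TDCA 8 (-0.19, 0.036), C26 2 (-0.17, 0.044), C26 4 (-0.17, 0.034) and CT 5 (-0.19, 0.0439). Total-count scaling called mt-Nd5 (-0.46, adjusted p = 0.000265), mt-Nd6 (-0.50, 9.03e-06) and mt-Cytb (-0.48, 1.37e-06) as well.

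**Figure D3:**
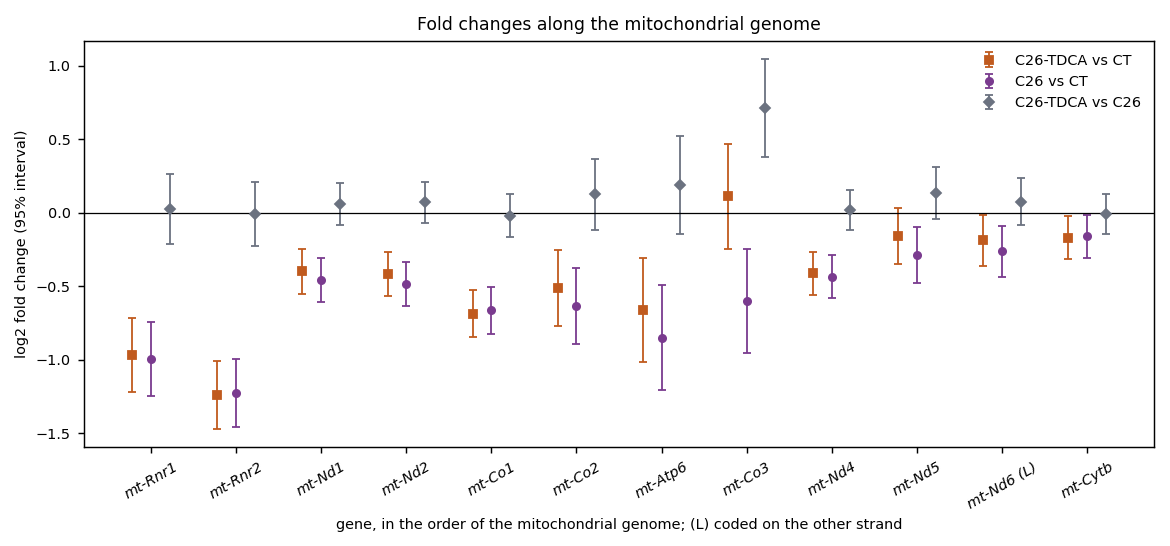
Log2 fold change with approximate 95% intervals for the 2 rRNAs and the 10 transcripts in the order of the mitochondrial genome, for C26-TDCA against CT (squares), C26 against CT (circles) and C26-TDCA against C26 (diamonds). Against CT the rRNAs are lowest; in C26 livers the transcripts from mt-Nd5 to mt-Cytb are nearest to 0, and in C26-TDCA livers mt-Co3 lies above 0 at 0.11. Between the tumour groups only the interval of mt-Co3 lies off 0.

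Between C26-TDCA and C26 livers 9 of the 10 transcripts were not called, with log2 fold changes from -0.02 for mt-Co1 to 0.19 for mt-Atp6. The 95% intervals of the 7 transcripts other than mt-Co2, mt-Atp6 and mt-Co3 ran from -0.17 (mt-Co1) to 0.31 (mt-Nd5). These approximate intervals each hold for a single transcript under TMM scaling and do not bound the set jointly. The exception was mt-Co3, called higher in a comparison in which 1.73% of all genes tested were called higher and 0.237% lower. None of the 10 had groups that did not overlap, as 0.0947% of all genes tested did with C26-TDCA above and 0.0541% with C26-TDCA below, and mt-Co3 alone reached an unadjusted p under 0.05.

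mt-Co3 had 47.1, 54.3, 58.1, 67.4, 83.7, 108, 116 and 126 CPM in the 8 C26-TDCA livers, against 38.4 to 58.2 CPM in C26 livers with a median of 50.1. The C26-TDCA livers were spread widely, with 5 of 8 above the highest C26 liver and 3 of 8 also above the highest CT liver, while the other C26-TDCA livers lay within the C26 range. The log2 fold change was 0.71 (SE 0.169, 95% interval 0.38 to 1.04, adjusted p = 0.0274). The row of the identical nuclear copy Gm28437 had 42.3, 50.7 and 66.3 CPM in C26-TDCA and 37.2, 49.9 and 52.8 CPM in C26 livers, with a log2 fold change of 0.12 (SE 0.093, adjusted p = 0.556). mt-Co3 held 46.3 to 70.7% of the counts of the pair in C26-TDCA livers, against 48.1 to 53.8% in C26 livers and 49.1 to 55.4% in CT livers. By arithmetic this share rises where mt-Co3 is higher and Gm28437 is not. The 2 rows summed to 102, 130 and 177 CPM (lowest, median and highest) in C26-TDCA, 75.6, 102 and 109 CPM in C26 and 120, 141 and 186 CPM in CT livers. The part of the division of counts between the 2 identical rows was not tested.

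The call of mt-Co3 between the tumour groups was also narrow. It was lost when only these 2 groups were fitted (log2 fold change 0.71, adjusted p = 0.0673) and with replicate number as a block (0.66, adjusted p = 0.0579). It was lost without C26-TDCA library 1 (0.63, adjusted p = 0.0542), 2 (0.65, 0.0629), 4 (0.75, 0.0542), 5 (0.71, 0.0525) or 7 (0.60, 0.057). The same held without C26 library 4 (0.66, 0.0545), 5 (0.72, 0.0621), 6 (0.73, 0.057), 7 (0.70, 0.0509) or 8 (0.69, 0.0581). The difference stayed between 0.60 and 0.80 on the log2 scale whichever library was left out.

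The 10 transcripts together made up 3.17 to 3.84% of all counts in C26-TDCA livers, 2.88 to 4.09% in C26 livers and 5.48 to 6.05% in CT livers, with means of 3.39 ± 0.22%, 3.26 ± 0.39% and 5.72 ± 0.22% (SD). The CT livers lay above all tumour-bearing livers, and the tumour groups overlapped throughout. The 20 genes with the most counts over all libraries together, most of which are from tumour-bearing mice, were taken as 1 list. They took 36.3 ± 1.2% of counts in C26-TDCA, 37.2 ± 2.0% in C26 and 15.99 ± 0.35% in CT livers. These 20 include mt-Co1 and mt-Cytb, but not mt-Nd1 and mt-Nd2, which ranked 15 and 16 by mean CPM in CT livers. The list is thus not the top 20 of CT livers, and the gap between groups depends in part on that choice. Against the counts outside these 20, the sum of the 10 transcripts was 5.33 ± 0.34%, 5.18 ± 0.47% and 6.81 ± 0.24%, in the same group order. This is not a share, since mt-Co1 and mt-Cytb are in the sum but not in the counts it is divided by. The C26-TDCA and C26 values (up to 6.02 and 6.11%) lay below the lowest CT liver (6.55%).

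The make-up of the set differed as well. mt-Co1 took 34.2 to 37.7% of the summed counts in C26-TDCA livers and 32.0 to 40.2% in C26 livers, against 41.6 to 43.4% in CT livers. mt-Cytb took 17.3 to 19.2% in C26-TDCA and 17.2 to 20.5% in C26 livers, against 14.0 to 15.6% in CT livers. Neither share overlapped with CT.

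Ratios within a library do not depend on scaling between libraries. The ratio of mt-Cytb to mt-Nd1 counts, the last and first protein-coding genes along the heavy-strand transcript and both with little or no nuclear copy sequence, was 1.41, 1.499 and 1.65 (lowest, median and highest) in C26-TDCA, 1.39, 1.63 and 1.72 in C26 and 1.19, 1.32 and 1.39 in CT livers. It was chosen after the values were seen, and the p-values given for it do not allow for that choice. The mean log2 ratio was higher than in CT by 0.23 in C26-TDCA livers (two-sided exact permutation test, p = 0.000333, adjusted over 3 comparisons 0.000999, no overlap) and by 0.30 in C26 livers (exact p = 0.000999, adjusted 0.0015, ranges touching). Between C26-TDCA and C26 livers it differed by -0.07 (exact p = 0.155, adjusted 0.155); without C26 library 5 the difference was -0.10 (adjusted p = 0.0272).

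The ratio of mt-Nd6 to the summed counts of the other 9 transcripts was 0.0361, 0.0385 and 0.0413 in C26-TDCA, 0.0336, 0.0366 and 0.0432 in C26 and 0.0292, 0.0328 and 0.0357 in CT livers. Of the set, only mt-Nd6 is coded on the light strand. As the strand setting is not given, antisense reads may be among its counts, so the ratio compares rows and not strands. It was measured in polyA RNA only. C26-TDCA livers lay above all CT livers, with a difference in mean log2 ratio of 0.27 (exact p = 0.000333, adjusted 0.000999, where 3003 regroupings allow no smaller p). The C26 ratio was higher than CT by 0.22 with overlap (exact p = 0.00566, adjusted 0.00849), and the tumour groups differed by 0.05 (exact p = 0.355, adjusted 0.355). The direction rested on the transcripts in the denominator. With mt-Co1 alone in it, or with mt-Nd5 left out of it, the outcome of all 3 comparisons stayed the same. Against mt-Cytb alone, chosen after the values were seen, the log2 ratio was lower than in CT by 0.02 in C26-TDCA livers (a difference of -0.016, adjusted p = 0.771) and by 0.10 in C26 livers (-0.099, adjusted p = 0.134). Thus mt-Nd6 was higher against the summed set and not against mt-Cytb.

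**Figure D4:**
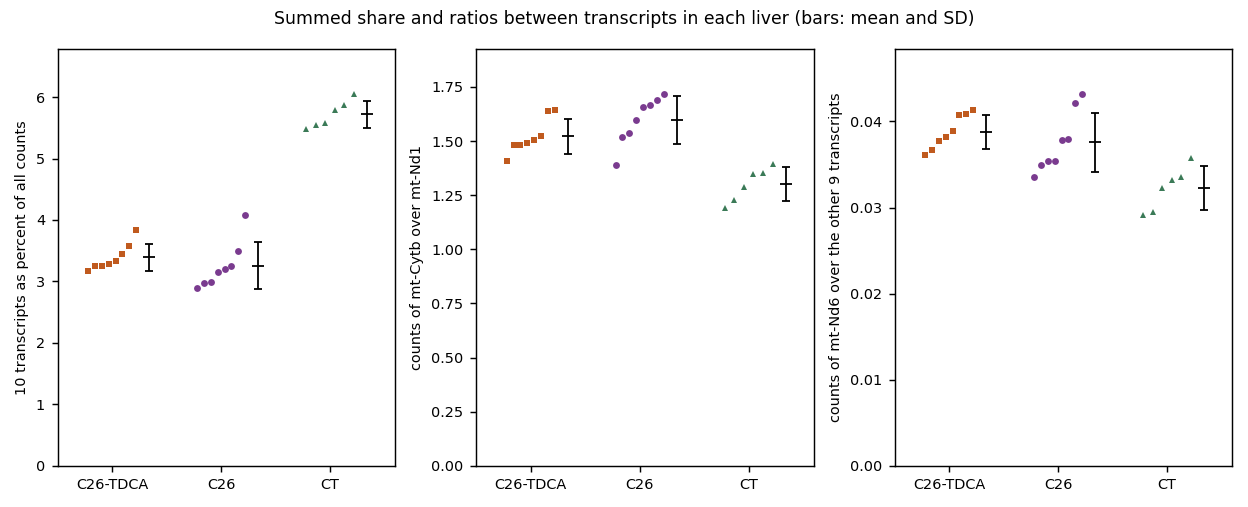
Summed counts of the 10 transcripts in percent of all counts (left), counts of mt-Cytb over mt-Nd1 (middle) and counts of mt-Nd6 over the other 9 transcripts (right) in each liver, sorted within a group; bars give the mean and SD (n = 8, 8 and 6). The sum is 3.39% and 3.26% on average in C26-TDCA and C26 livers and 5.72% in CT livers, and both ratios are higher on average in the tumour groups.

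Of the other 15 mitochondrial genes in the table, 7 were lower in C26-TDCA and 9 in C26 than in CT livers, beside 28.2% and 29.2% of all genes tested. The tRNA rows mt-Tl1, mt-Tw, mt-Th, mt-Ts2 and mt-Tl2 were near the floor, with group means from 0.225 CPM (mt-Ts2, C26-TDCA) to 0.862 CPM (mt-Tl1, CT). Between the tumour groups edgeR, DESeq2 and voomWithQualityWeights each called 0 of 15, and 0 had an unadjusted p under 0.05. The rRNAs differed most among the abundant ones. mt-Rnr1, the 12S rRNA of the small mitochondrial ribosomal subunit, had 127 to 237 CPM in C26-TDCA, 126 to 223 CPM in C26 and 287 to 359 CPM in CT livers, with a log2 fold change in C26 livers of -0.99 (SE 0.129, adjusted p = 4.28e-07). mt-Rnr2, the 16S rRNA of the large subunit, had 204 to 313 CPM in C26-TDCA, 196 to 363 CPM in C26 and 483 to 680 CPM in CT livers, with a log2 fold change of -1.23 (SE 0.118, adjusted p = 3.33e-09). Both tumour groups lay below CT for both rRNAs. Both rRNAs were measured in polyA RNA, and their level in total RNA was not measured.

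Among the 3 further protein-coding genes, mt-Nd3 (complex I) was lower in C26 than in CT livers with a log2 fold change of -0.48 (adjusted p = 0.000511). mt-Nd4l (complex I) was at -1.73 (adjusted p = 0.00143), a value that CT library 2 largely set, since without it the log2 fold change was -0.79 (adjusted p = 0.0298). mt-Atp8, the small ATP synthase subunit whose gene overlaps mt-Atp6 by 43 bases, was at -0.75 (adjusted p = 0.0262) with about 1 CPM. Its call was lost without C26 library 4 (-0.63, adjusted p = 0.0525), C26 library 6 (-0.65, 0.051), CT library 5 (-0.68, 0.06) or CT library 7 (-0.55, 0.109). mt-Tp, the most abundant of the 10 tRNA rows, had a log2 fold change of -0.91 (SE 0.093, adjusted p = 9.31e-09).

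Most nuclear-encoded partners of these subunits were called lower than in CT livers, as were 28.2% (C26-TDCA) and 29.2% (C26) of all genes tested. Of 76 nuclear subunits of complexes I to V, counting the ATP synthase inhibitor Atpif1, 73 were called lower in C26-TDCA than in CT livers and 73 in C26 than in CT livers, 0 were higher at an adjusted or unadjusted p under 0.05 with edgeR, DESeq2 or voomWithQualityWeights, and the median log2 fold changes were -0.73 and -0.68. Between C26-TDCA and C26 livers these tools called 0 of the 76, with log2 fold changes from -0.23 to 0.14, and 2 were lower at an unadjusted p under 0.05 with edgeR and DESeq2 and 5 with voomWithQualityWeights. By complex, the C26 against CT comparison gave 34 of 36 lower in complex I (median -0.66), 4 of 4 in complex II (median -0.96), 8 of 9 in complex III (median -0.72), 11 of 11 in complex IV (median -0.67) and 16 of 16 in ATP synthase (median -0.54). The 3 not called were Ndufa2, Ndufa7 and Uqcrq in C26 livers and Ndufa2, Uqcrq and Atpif1 in C26-TDCA livers, named here after their values were seen.

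Set beside them, the mitochondrially encoded subunits of complex I ran from -0.49 to -0.26 and mt-Cytb of complex III was at -0.16. In complex IV they ran from -0.66 to -0.60, and in ATP synthase mt-Atp6 was at -0.85. Examples of the nuclear subunits were Ndufs1, the largest iron-sulphur subunit of complex I, with 58.0 to 70.3 CPM in C26-TDCA, 54.8 to 71.7 CPM in C26 and 114 to 130.3 CPM in CT livers (log2 fold change in C26 livers -0.94, adjusted p = 1.33e-11). Sdhb, the iron-sulphur subunit of succinate dehydrogenase in complex II, had 60.3 to 93.6 CPM in C26-TDCA, 61.1 to 92.6 CPM in C26 and 175 to 201 CPM in CT livers (-1.30, adjusted p = 1.27e-11). Each was without overlap between either tumour group and CT. Uqcrc2, a core protein of complex III, was at -0.89 (adjusted p = 4.63e-12), Cox5a of complex IV at -0.91 (adjusted p = 5.96e-09) and Atp5b, the catalytic beta subunit of ATP synthase, at -0.93 (adjusted p = 5.26e-11).

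**Figure D5:**
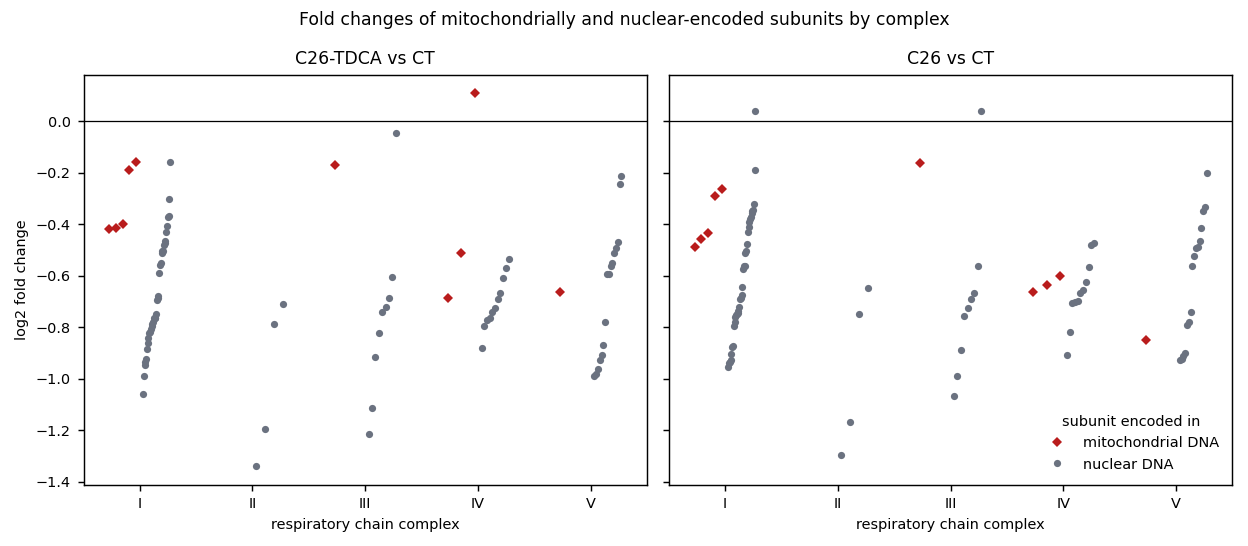
Log2 fold change of mitochondrially encoded (diamonds) and nuclear-encoded (circles) subunits by respiratory chain complex, in C26-TDCA against CT (left) and C26 against CT (right) livers; each point is a gene, sorted within its group. Nearly all points lie below 0, mt-Co3 in C26-TDCA livers being at 0.11, and the mitochondrially encoded subunit of complex III lies nearer to 0 than 8 of 9 nuclear ones in both panels.

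Genes of the machinery that makes and maintains mitochondrial RNA and DNA are given next, to be read against the 28.2% (C26-TDCA) and 29.2% (C26) of all genes tested that were called lower than in CT livers and the 28.7% and 28.9% called higher. Of 11 genes for transcription of mitochondrial DNA, 7 were lower in C26-TDCA and 4 in C26 than in CT livers, the count in C26 livers being near the share over all genes, with 0 higher by edgeR, DESeq2 or voomWithQualityWeights, also without adjustment. Tfam, which packages mitochondrial DNA and activates its promoters, had 31.3, 36.8 and 40.5 CPM in C26-TDCA, 33.9, 35.9 and 37.4 CPM in C26 and 40.7, 45.0 and 53.6 CPM in CT livers. Its ranges did not overlap with CT, and its log2 fold change in C26 livers was -0.36 (SE 0.062, adjusted p = 2.22e-05). Tfb2m, the promoter-melting factor, was at -0.39 (adjusted p = 3.4e-05), Mrpl12, a mitochondrial ribosomal protein that binds the polymerase in human cells, at -0.32 (adjusted p = 0.00157) and Mterf3, a repressor of transcription, at -0.39 (adjusted p = 0.00768). Polrmt, the mitochondrial RNA polymerase, was at -0.28 in C26-TDCA livers (adjusted p = 0.0011) and -0.12 in C26 livers (adjusted p = 0.143), each against CT.

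Of 20 genes for processing and stability of mitochondrial RNA, 10 were lower and 1, Pde12, a mitochondrial poly(A) nuclease, was higher in C26 than in CT livers. Lrpprc, which stabilises mitochondrial messages and promotes their polyadenylation, had 91.9 to 115 CPM in C26-TDCA, 91.2 to 101 CPM in C26 and 123 to 144 CPM in CT livers, with a log2 fold change in C26 livers of -0.48 (adjusted p = 1.34e-07). Grsf1, a protein of the mitochondrial RNA granules that in human cells binds the light-strand message, was at -0.95 (adjusted p = 1.02e-10). Fastkd1, of a family of mitochondrial RNA-binding proteins, was at -1.14 (adjusted p = 3.45e-10), and Hsd17b10, a subunit of mitochondrial RNase P, at -0.65 (adjusted p = 2.14e-06).

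Of 14 genes for replication and maintenance of mitochondrial DNA, 7 were lower and 3 higher (Lig3, Mpv17 and Twnk, the last 2 named after their values were seen) in C26 than in CT livers, among them Polg2, the accessory subunit of the DNA polymerase, at -1.22 (adjusted p = 8.38e-09) and Lig3, the DNA ligase of mitochondria and nucleus, at 0.45 (adjusted p = 8.59e-05). Of 10 translation factors 7 were lower and 1, Mrrf, higher, with Gfm1, an elongation factor, at -0.43 (adjusted p = 1.13e-07). Of 37 insertion and assembly factors 21 were lower, and of 22 other mitochondrial proteins 16 were lower, with Opa1, the fusion GTPase of the inner membrane, at -1.06 (adjusted p = 1.12e-11) and Vdac1, a channel of the outer membrane, at -0.80 (adjusted p = 6.15e-10).

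Of 9 regulators of mitochondrial biogenesis 4 were lower (Ppargc1b, Esrra, Gabpa and Yy1) and 3 higher (Pprc1, Nrf1 and Gabpb1) in C26 than in CT livers, beside 29.2% of all genes called lower and 28.9% higher, so these counts say little about the list as a whole. Ppargc1b, a coactivator of mitochondrial gene programmes, had 1.58 to 3.27 CPM in C26-TDCA, 1.100 to 2.83 CPM in C26 and 7.12 to 14.8 CPM in CT livers, a log2 fold change of -2.20 in C26 livers (adjusted p = 2.06e-09). Esrra, a nuclear receptor it acts with, was at -1.34 (adjusted p = 6.5e-10), Gabpa, a subunit of nuclear respiratory factor 2, at -0.42 (adjusted p = 9.52e-05), and Pprc1, a related coactivator, at 0.87 (adjusted p = 3.58e-08). Ppargc1a, the best known coactivator of the family, had 10.9, 22.9 and 52.1 CPM in C26-TDCA, 8.30, 14.5 and 19.2 CPM in C26 and 11.5, 15.9 and 26.6 CPM in CT livers, without a call in either tumour group against CT or between them (adjusted p = 0.107 for C26-TDCA against C26). In C26-TDCA against C26 livers edgeR and voomWithQualityWeights called 0 of the 199 genes tested of the 12 pathway lists. DESeq2 called 1 higher (Nrip1) and 1 lower (Tsfm), and at an unadjusted p under 0.05 edgeR had 5 higher and 13 lower.

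With group means removed, the log2 CPM of each transcript correlated with the mean of all 10 over the 22 libraries with Pearson's r from 0.48 for mt-Atp6 to 0.87 for mt-Nd2; each transcript is part of that mean and all share the scaling of its library, so positive values are built in and do not show that the transcripts varied together. C26 library 2 was the highest of its group for 7 transcripts and C26 library 4 the lowest for 7, while C26-TDCA library 4 was highest for 6 and CT library 8 for 7. C26 library 2 had the smallest depth of its group.

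Among 7521 nuclear genes with at least 10 CPM on average, the deviations most like those of the mean of the 10 transcripts were those of the nuclear copy Gm10925 (r = 0.71), Dpys, a dihydropyrimidinase of pyrimidine breakdown (0.69), Bpnt1, a bisphosphate nucleotidase (0.69), Dlat, the acetyltransferase of the pyruvate dehydrogenase complex (0.69), and Aldh5a1, the mitochondrial succinate semialdehyde dehydrogenase (0.67). The most opposed were Snx6, a sorting nexin (-0.73), Plod3, a collagen lysyl hydroxylase (-0.70), and Dhx38, a splicing helicase (-0.70). All are extremes picked from 7521 correlations over 22 libraries, where values of this size can arise by chance, and none was tested. Gm10925 is identical to mt-Atp6, one of the 10, in 678 of 678 compared bases, so its likeness is not independent of the set. In C26 against CT livers Dlat was at -1.31 (adjusted p = 2.2e-11) and Aldh5a1 at -1.14 (adjusted p = 7.64e-11), whereas Bpnt1 was not called (-0.10, adjusted p = 0.112).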

How the data were processed

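Liver polyA RNA of 22 mice was measured, and the table the authors deposited gives raw read counts by Ensembl gene, with every column naming its mouse. The submitters' processing notes name GRCm38 as genome build and, among the tools, HISAT2 2.2.1 and featureCounts 2.0.3; no source used here gives the strand setting, the annotation release or how reads with several places in the genome were counted. Symbols, coordinates and transcripts came from GENCODE M21. Mice were grouped by their labels.

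The members and lists were chosen with earlier results of these data known. Named genes were all members and mitochondrial genes, their nuclear copies, up to 4 called genes per pathway list by p in C26 against CT plus Ppargc1a, Tfam, Polrmt and Lrpprc, and the genes most and least alike. Of 15448 genes, filterByExpr with a minimum count of 10 kept 14785. One edgeR 4.0.16 model (R 4.3.3) over all libraries with TMM scaling gave quasi-likelihood F tests, with Benjamini-Hochberg adjustment at 0.05; it was tested on simulated data. Each SE was approximated from F and the fold change, and 95% intervals rest on it. Ratios were compared with exact permutation tests (two-sided), and p was adjusted over 3 comparisons. Alternatives were DESeq2 1.42.0, limma 3.58.1 (voomWithQualityWeights), 4 other scalings, no filter, only the groups compared, a replicate block and leaving out libraries. A count of 3 corresponds to 0.11 to 0.18 CPM at these depths, which covers counting error only. No pair of libraries within a group agreed within counting noise (lowest chi-square per degree of freedom 10.36).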

Additional observations from a re-analysis of the deposited data

Results flagged for a closer look

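In 5 of 66 groups of values checked, 1 library stood apart from the rest of its group; chance alone flags about 1 in 20 groups. mt-Atp6 was at 99.6 CPM in C26-TDCA library 1, where the next highest of the group had 66.6 CPM. In C26 library 2, mt-Rnr1 was at 223 CPM with the next at 170 CPM, and mt-Rnr2 at 363 CPM with the next at 259 CPM; the same library was the highest of its group for 7 of the 10 transcripts. mt-Nd4l was at 14.1 CPM in C26-TDCA library 4, with the next at 8.19 CPM, and at 56.2 CPM in CT library 2, with the next at 16.1 CPM.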

How the results depend on the processing

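Across leave-one-out fits, 9 to 10 transcripts were called in C26 against CT, 0 to 1 in C26-TDCA against C26 and 6 to 8 in C26-TDCA against CT; in the other fits over all genes the counts were 8 to 10, 0 to 1 and 6 to 9. The count between the tumour groups was 0 when only these 2 groups were fitted and 0 with the replicate block. Correlations of same-numbered libraries were -0.08 to 0.05 in C26 with CT (0 of 6 pairs over 0.1), -0.20 to 0.34 in C26-TDCA with C26 (5 of 8 over 0.1) and -0.01 to 0.13 in C26-TDCA with CT (1 of 6); as not every pair passed 0.1 and no label ties the numbers to a shared origin, the numbers were not taken to pair the mice. The block left 9 called in C26 against CT and 6 in C26-TDCA against CT. Among the fold changes of the 10 transcripts, directions that turned were all of uncalled values. In C26-TDCA against C26, mt-Co1 was at 0.01 and mt-Cytb at 0.027 with total counts. mt-Cytb was at 0.01 with total counts outside the 10 transcripts and the top 20, and mt-Nd4 at -0.022 without C26 library 1 and C26-TDCA library 8. In C26-TDCA against CT, mt-Co3 was at -0.20 with total counts and -0.028 with voomWithQualityWeights. Leaving out 1 library, these ran in C26-TDCA against C26 from -0.046 to 0.045 (mt-Co1), -0.006 to 0.07 (mt-Nd4) and -0.046 to 0.02 (mt-Cytb), and for mt-Co3 in C26-TDCA against CT from -0.001 to 0.209. With mt-Cytb alone in the denominator, chosen after seeing the data, the difference in the log2 ratio of mt-Nd6 turned to -0.016 in C26-TDCA and -0.099 in C26 against CT. Against the summed other transcripts these differences were 0.269 and 0.219 (exact permutation test, adjusted p = 0.000999 and 0.00849). The mt-Cytb to mt-Nd1 log2 ratio in C26-TDCA against C26 ran from -0.096 to -0.052. Set against the counts outside the 20 genes most abundant over all libraries together, the sum of the 10 transcripts was 5.33% in C26-TDCA, 5.18% in C26 and 6.81% in CT livers. As mt-Co1 and mt-Cytb are among those 20, this value is not a share. The cause of these shifts was not tested. No transcript had under 800 counts in a library; for mt-Co2, mt-Atp6 and mt-Co3 the identical nuclear copies limit what their counts can show.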
